A study of Mus musculus with 12 samples.

Results

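The mTORC1 kinase, its regulators and the S6 kinases are 10 genes, Mtor, Rptor, Mlst8, Akt1s1, Deptor, Rheb, Tsc1, Tsc2, Rps6kb1 and Rps6kb2, taken by symbol from 55180 genes with a record in RNA-seq libraries of mouse cortex. The study compared Larp1 cKO mice, which carry Nestin-Cre and Larp1-flox/flox, with Larp1 WT mice, which carry Nestin-Cre alone. Nestin-Cre recombines in progenitors of neurons and some glia, so other cells of the cortex may keep the floxed gene. The labels describe 12 samples, 6 cKO and 6 WT, and the methods name 3 male mice of each genotype with no age for these RNA samples. Values were read from 6 libraries, 1 for each of the mice numbered 678, 687, 688, 698, 700 and 703. The sources used here do not say which numbered mouse had which genotype, so none was assigned, no groups were compared and no test was run. Each value is therefore that of a single library, or the range and median of all 6.

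mTORC1 is a protein kinase complex that couples amino acids, insulin and energy supply to cell growth. The kinase Mtor works with Rptor (Raptor), which recruits substrates, and Mlst8, which binds the kinase domain, while Akt1s1 (PRAS40) and Deptor restrain it. The GTPase Rheb activates it at the lysosome, and the complex of Tsc1 and Tsc2 turns Rheb off. Among its substrates are the S6 kinases Rps6kb1 and Rps6kb2 and also Larp1, a protein that binds mRNAs whose 5′ end begins with a terminal oligopyrimidine (TOP) motif. In brain, loss of TSC1 or TSC2 causes tuberous sclerosis, a human disorder with cortical malformations and epilepsy.

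Because Larp1 recognises the first bases of an mRNA, the annotated 5′ ends of the 10 genes were searched for a TOP-like start, meaning a C followed by at least 4 bases that are each C or T, read on the strand of the gene. At the RefSeq start (GRCm38.p6), 0 of the 8 members with an entry had such a start, against 2.49% of 27025 genes. At the first base of the most abundant coding transcript in GENCODE M21 (GRCm38), 0 of 10 had it, against 2.38% of 13603 detected coding genes. When the motif could begin within 5 bases on either side of the RefSeq start, 2 of 8 matched, Mtor and Mlst8, against 18.5% of all genes. These are shown with Rheb, which had no match there, from 10 bases before the RefSeq start to 19 after the first base, with the matching run in capitals.
Mtor, chr4:148448572-148448601, plus strand: cctccccaCCTCCCTggcctagaagacagc
Mlst8, chr17:24479059-24479088, minus strand: tcggcccggCTTCTatcgactagctcctcc
Rheb, chr5:24842342-24842371, minus strand: cgagaggcagccgcgcccgccgccgtgctc
In Mtor the run began 2 bases before the RefSeq start at 148448582, and its main GENCODE transcript began further downstream, at 148448611. In Mlst8 the run began 1 base before the start at 24479078, which both annotations share. Deptor was the member whose GENCODE transcript began with a C, and that C was followed by a G.
Deptor, chr15:55112317-55112336, plus strand: cggactcgccgacttctcct
A match here describes annotated letters only, since where transcription began in these libraries was not measured.

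All 10 genes were detected, with an expected count of at least 10 in every library. Levels are in TPM, the RSEM estimate of a transcript's share of all transcripts, corrected for its length and scaled by the authors to the same total over every listed transcript in each library. Between 36.4% and 47.8% of TPM lay on genes annotated as misc_RNA and 22.7% to 28.8% on nuclear protein-coding genes. The median detected gene stood at −0.17 in mouse 700 and at 0.18 in mouse 703 on a log2 scale against its own median TPM, and within 0.04 of it in the other libraries. Levels were therefore also rescaled so that nuclear protein-coding genes have the same total in each library, and called rescaled TPM. Defining markers of cortical neurons were present in every library, with Slc17a7 at 346.5 to 491.9 TPM and Rbfox3 at 83.2 to 117 TPM. The cerebellar markers Pcp2 and Gabra6 stayed at or under 0.09 TPM, but the third, Cbln1, reached 10.4 TPM.

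Rheb, the activator, had the highest level at a median of 26.4 TPM (range 22.9 to 27.9), at or above 84.2% of detected coding genes. Tsc2 followed at 18.5 TPM (15.7 to 21.2), Akt1s1 at 17.1 TPM (15.4 to 19.7), Mtor at 16.7 TPM (13.2 to 21.2) and Rptor at 13.8 TPM (11.3 to 14.8). Tsc1 had a median of 9.11 TPM (7.26 to 10.4), Rps6kb1 8.45 TPM (7.35 to 9.88), Mlst8 6.91 TPM (5.49 to 7.68) and Deptor 5.18 TPM (4.08 to 7.43). Rps6kb2 was last at 2.48 TPM (1.80 to 2.94). Ranges of neighbours in this order were apart only for Rheb over Tsc2, Rptor over Tsc1 and Deptor over Rps6kb2. The order held in all 6 libraries for 5 of the 9 neighbouring pairs, and Akt1s1 was above Mtor in 3 of 6. The sum of the 10 genes was 0.0108% to 0.0137% of TPM, with a median of 0.0128%.

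**Figure D1:**
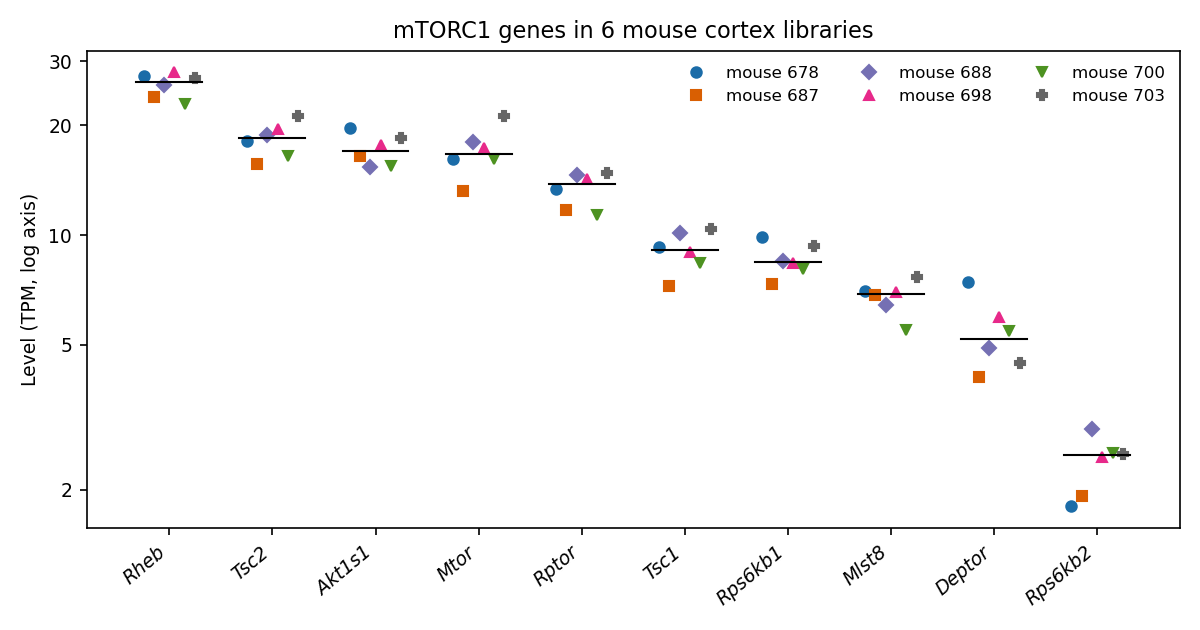
Level of each gene in TPM (log axis) in the 6 libraries, 1 point per mouse, with the median as a line and genes sorted by it. Rheb sits at the top (22.9 to 27.9 TPM) and Rps6kb2 at the bottom (1.80 to 2.94 TPM), and most neighbours overlap.

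The kinase Mtor had 16.2 TPM in mouse 678, 13.2 in mouse 687, 18.0 in mouse 688, 17.3 in mouse 698, 16.2 in mouse 700 and 21.2 in mouse 703. Mouse 703 was highest and mouse 687 lowest, a ratio of 1.60. In rescaled TPM mouse 687 stayed lowest at 53.8, while mice 688 (73.6) and 703 (73.5) were nearly level at the top and the ratio was 1.37. The ratio of 1.60 rested on both ends, as it was 1.31 without mouse 687 and 1.36 without mouse 703.

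Rptor had 13.4, 11.7, 14.7, 14.3, 11.3 and 14.8 TPM in mice 678, 687, 688, 698, 700 and 703, so mice 687 and 700 lay below the other 4. Its level was 0.70 to 0.88 of that of Mtor in every library. Mlst8 had the smallest spread of the members in rescaled TPM, from 24.2 in mouse 700 to 27.8 in mouse 687, a ratio of 1.15. Relative to Mtor it ran from 0.34 to 0.52 in TPM, highest in mouse 687, where Mtor was lowest.

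The mTORC1 inhibitors differed from each other in spread. Akt1s1 had 19.7, 16.4, 15.4, 17.6, 15.4 and 18.5 TPM in mice 678, 687, 688, 698, 700 and 703, a ratio of 1.28 between the highest and the lowest. Deptor had 7.43, 4.08, 4.91, 5.97, 5.44 and 4.46 TPM in the same mice, a ratio of 1.82, the largest among the members. Mouse 678 was highest for both inhibitors, and for Deptor mice 687 and 703 were the lowest. The ratio for Deptor was 1.84 in rescaled TPM and 1.69 in CPM scaled by TMM (reads over the normalized library total, with no correction for length), and 1.46 in TPM without mouse 678. It was the only member past 1.5-fold in each of these units, and its level was 0.21 to 0.46 of that of Mtor.

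In TPM, the markers Mbp and Mog of oligodendrocytes, the myelin-forming cells, followed Deptor across the libraries only when summed. The summed TPM of Mbp and Mog was 334.0, 203.2, 221.4, 292.8, 289.9 and 205.7 in mice 678, 687, 688, 698, 700 and 703, and put the 6 libraries in the same order as Deptor. Neither marker alone had that order in TPM. Mbp was at 277.1 TPM in mouse 700 and 275.0 in mouse 698. Mog was highest in mouse 698 (17.8 TPM) and lowest in mouse 688 (9.6 TPM). Both markers varied at least 1.5-fold, with highest over lowest library at 1.66 for Mbp and 1.85 for Mog in TPM. In rescaled TPM Mbp alone had the order of Deptor, except that mice 678 and 700 were level at 1222. Mog did not have it in that unit, as it was highest in mouse 698 (69.6). The summed level of the striatal markers Drd1 and Ppp1r1b was highest in mice 703 (59.4 TPM) and 687 (49.7 TPM), the libraries lowest for Deptor, and lowest in mouse 700 (28.1 TPM). The part of these cell types in the spread of Deptor was not tested. In bulk tissue fewer cells of a type and less RNA per cell cannot be told apart, and these markers were set beside Deptor after its values were seen.

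**Figure D2:**
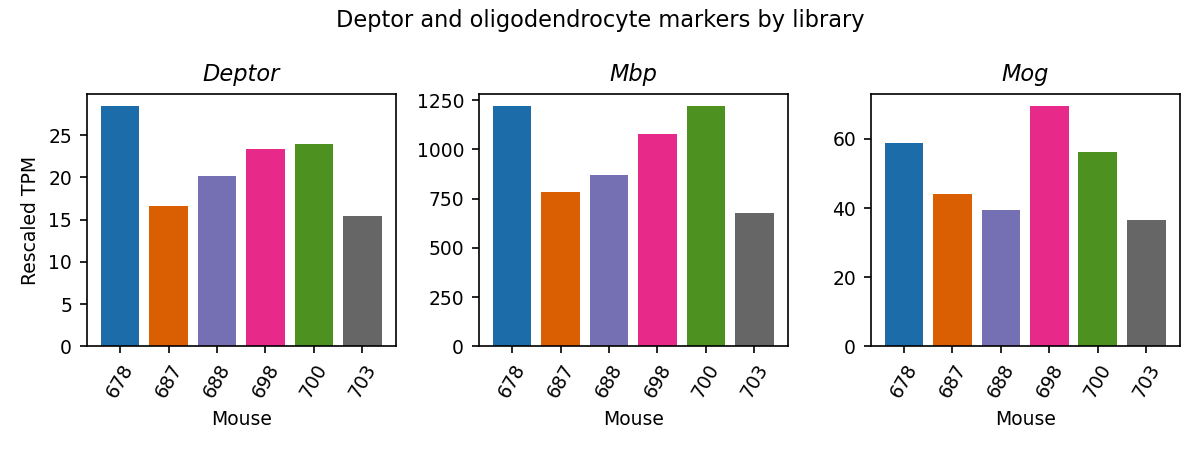
Rescaled TPM (bars from 0) of Deptor and of the oligodendrocyte markers Mbp and Mog in the 6 libraries. Mice 687, 688 and 703 have the lowest bars for the markers, and Deptor is highest in mouse 678 (28.5) and lowest in mouse 703 (15.5).

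Among the regulators upstream of the kinase, Rheb varied least in TPM. It had 27.4, 23.9, 25.8, 27.9, 22.9 and 26.9 TPM in mice 678, 687, 688, 698, 700 and 703, a ratio of 1.22. Tsc2, the subunit that stimulates GTP hydrolysis by Rheb, had 18.1, 15.7, 18.8, 19.5, 16.5 and 21.2 TPM in the same mice. Tsc1, which stabilises Tsc2, had 9.25, 7.26, 10.1, 8.97, 8.39 and 10.4 TPM. Mouse 703 was highest and mouse 687 lowest for both TSC subunits. Tsc1 stayed at 0.46 to 0.54 of Tsc2, the narrowest of the 7 ratios examined in TPM over all transcripts (highest over lowest 1.17), and Rheb at 1.27 to 1.52 times Tsc2. Over protein-coding transcripts alone, Rheb to Tsc2 was narrower (1.14) than Tsc1 to Tsc2 (1.19).

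The S6 kinases, which phosphorylate ribosomal protein S6, differed in level. Rps6kb1 had 9.88, 7.35, 8.51, 8.38, 8.06 and 9.35 TPM in mice 678, 687, 688, 698, 700 and 703, with mouse 678 highest and mouse 687 lowest. Rps6kb2 had 1.80, 1.92, 2.94, 2.46, 2.52 and 2.51 TPM in the same mice, so that mice 678 and 687 lay below the other 4. It was 0.18 to 0.35 of Rps6kb1. Its ratio of highest to lowest library, 1.63 in TPM, fell to 1.40 without mouse 688. In reads the spread was smaller, as Rps6kb2 had 113 to 125 expected counts per library and a ratio of 1.14 in TMM-scaled CPM. The lowest of these counts, 113, has an exact 95% Poisson interval of 93.1 to 135.9, which covers counting error only. The lowest count of every other member was 634 or more. For Rps6kb1 the order of libraries also depended on the unit. In TMM-scaled CPM mouse 688 was highest for it (29.4) and mouse 700 lowest (25.3), a ratio of 1.16.

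The highest library was at least 1.5 times the lowest for 3 members in TPM (Mtor, Deptor and Rps6kb2), where 47.9% of 15013 detected genes were past that ratio. In rescaled TPM it was 2 members (Deptor and Rps6kb2), where 33.9% of detected genes were. A single library stood apart from the others (a Dixon ratio above the 95% critical value for 6 values) for 0 of 10 members in TPM, where 7.04% of detected genes had such a library, and for 0 of 10 in rescaled TPM, where 5.91% had. The median log2 range of the members was 0.46 in TPM and 0.34 in rescaled TPM, against 0.55 and 0.42 over detected nuclear protein-coding genes. Over those with a median level between the lowest and highest member median, it was closer, at 0.51 in TPM and 0.375 in rescaled TPM. Mlst8 had a log2 range of 0.20 in rescaled TPM, and 9.23% of 13624 coding genes had as small a range. Deptor had 0.88 and Rps6kb2 0.80, ranges that 85.7% and 82.9% of coding genes did not exceed.

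**Figure D3:**
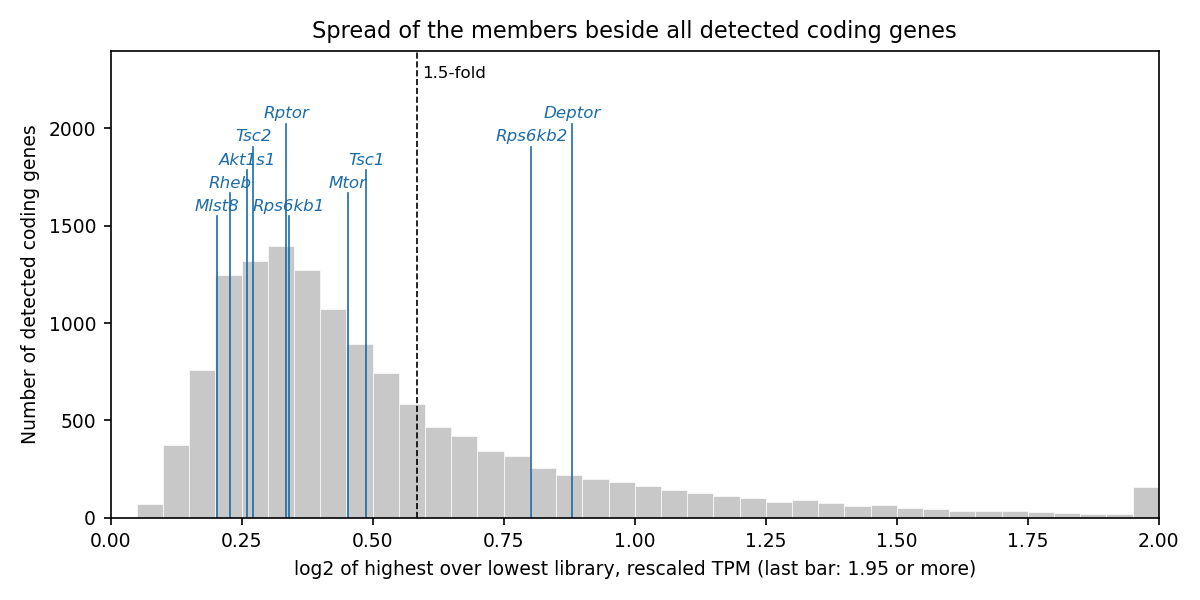
Histogram of the log2 ratio between the highest and lowest library in rescaled TPM over 13624 detected coding genes, with the 10 members as vertical lines and 1.5-fold as a dashed line. The lines of 8 members lie left of the dashed line, and those of Rps6kb2 (0.80) and Deptor (0.88) right of it.

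The libraries were not alike over the members, and which was highest depended on the scaling. In TPM mouse 703 was highest for 5 members, Mtor, Rptor, Mlst8, Tsc1 and Tsc2, mouse 688 only for Rps6kb2, and mouse 687 was lowest for 5, Mtor, Deptor, Tsc1, Tsc2 and Rps6kb1. In rescaled TPM mouse 687 was lowest for 5 members, Mtor, Rptor, Tsc1, Tsc2 and Rps6kb1, and mouse 688 was highest for 5, Mtor, Rptor, Tsc1, Tsc2 and Rps6kb2. For Mtor the distance from the gene's median was −0.37 on the log2 scale in mouse 687 and 0.08 in mouse 688, and for Tsc1 it was −0.28 and 0.21. Mlst8 went the other way, highest in mouse 687 at 0.06. In TMM-scaled CPM its highest library was mouse 698 (17.93), with mouse 687 at 17.89. As a share of expected counts, where long genes weigh more, the 10 genes summed to 0.0432% in mouse 687 and to 0.0485% to 0.0495% in the other 5.

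**Figure D4:**
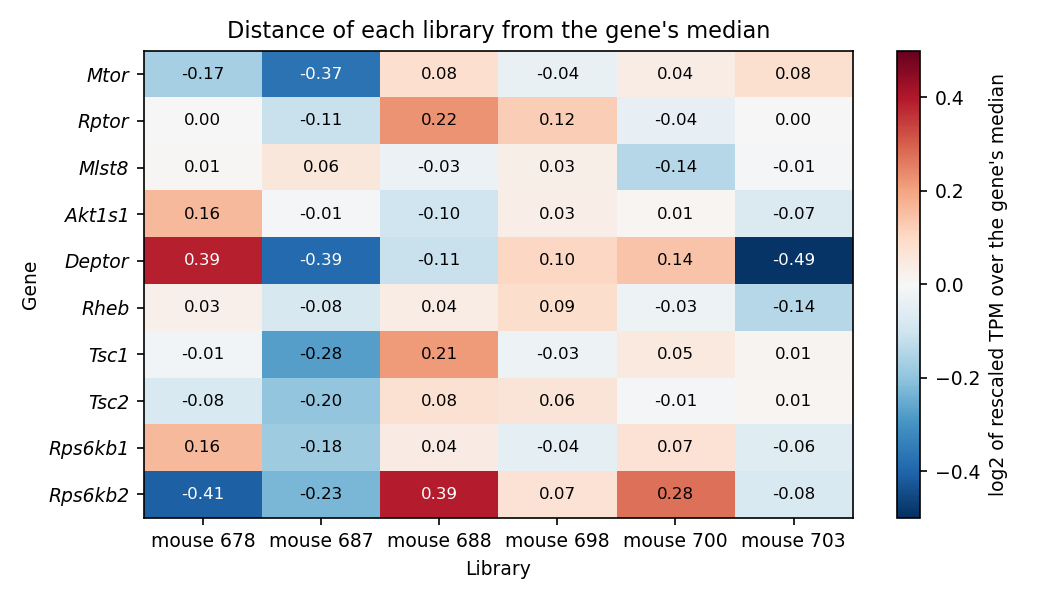
Log2 of rescaled TPM over the median of each gene, for the 10 genes (rows) and the 6 libraries (columns), red above and blue below the median. Mouse 687 lies below the median for 9 of the 10 genes, with Mtor at −0.37 and Mlst8 the exception at 0.06, and Deptor spans −0.49 to 0.39.

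Each gene's TPM was next divided over its annotated transcripts, as the authors' estimates assign reads among them. A single transcript held most of Rheb (Rheb-201, 93.1% to 99.6%) and of Mtor (Mtor-202, 78.3% to 86.1%). As a share of expected counts, the median for Mtor-202 was 98.5%. The transcript with the highest level was the same in all 6 libraries for 8 members. In Mlst8, 2 coding transcripts of nearly equal length, Mlst8-202 (3340 bases) and Mlst8-201 (3358 bases), led in 4 and in 2 libraries, and in Tsc1 the pair Tsc1-202 and Tsc1-201 led in 5 and in 1. Transcripts annotated as retaining an intron held 17.7% to 26.6% of Tsc2, 13.2% to 22.5% of Rptor and 11.9% to 23.8% of Rps6kb1. These are shares of TPM, in which short transcripts weigh more than in reads. Among them, Tsc2-210 (454 bases) had a median of 7.16% of Tsc2 TPM but 0.50% of its expected counts. For Tsc2-222 (461 bases) these were 7.10% and 0.51%. The longer Rps6kb1-201 (2771 bases) differed less, with 12.5% of Rps6kb1 TPM and 9.64% of its counts. The short coding transcript Rps6kb1-204 (555 bases) had a median of 30.7% of Rps6kb1 TPM but 3.69% of its counts.

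Rps6kb2 differed from the rest. Its coding transcripts held 2.78%, 11.5%, 16.0%, 0.81%, 2.78% and 4.78% of its TPM in mice 678, 687, 688, 698, 700 and 703. Over 13625 detected nuclear protein-coding genes the median share was 96.4%, and 6.17% of them had a median share under 50%. The leading Rps6kb2 transcript in every library was Rps6kb2-204, annotated as a target of nonsense-mediated decay, at 23.5% to 64.4%. The other 9 members had median coding shares from 75.0% (Rptor) to 100% (Deptor). On coding transcripts alone Rps6kb2 was at 0.02 to 0.47 TPM, and its ratio to Rps6kb1 had a median of 0.014 in place of 0.28. With 113 to 125 counts over 12 transcripts, the division is imprecise for this gene. Rps6kb2 also shares 2761 bases with Ptprcap, at a median of 0.18 TPM, and 45 bases with Coro1b, at 18.7 TPM, both on the opposite strand. Tsc2 shares 693 bases with Pkd1 (9.29 TPM), Rps6kb1 155 bases with Rnft1 (3.10 TPM) and Akt1s1 89 bases with Tbc1d17 (15.0 TPM), each on the opposite strand, and the sources used here do not say whether reads were counted by strand.

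**Figure D5:**
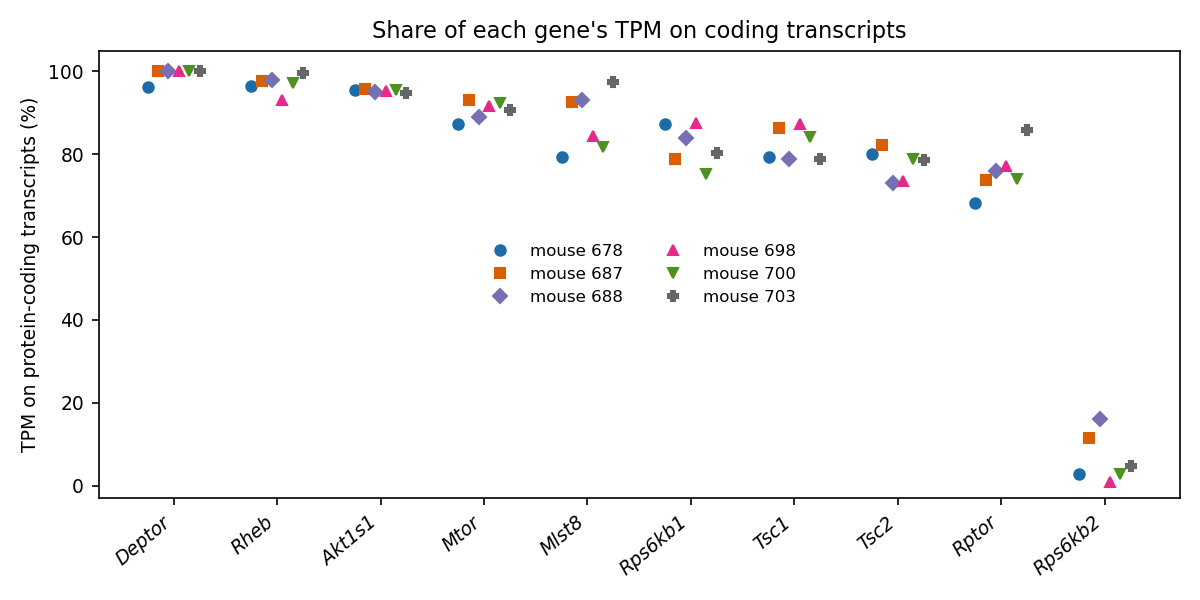
Percentage of each gene's TPM on transcripts annotated as protein-coding, 1 point per mouse, genes sorted by the median share. Rps6kb2 lies at 0.81% to 16.0% and every point of the other 9 genes is at 68.2% or more.

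Around the members, 68 other genes of the pathway in 13 lists were read, and all were detected. Of these, 20 varied at least 1.5-fold in TPM, beside 47.9% of detected genes, and 11 in rescaled TPM, beside 33.9%. The count of 20 was 12 without mouse 700 and 9 without mouse 703, the libraries at the ends of the shift described above. Leaving out a library can only lower such a count. The share of all detected genes without that library was not computed, so whether the fall is particular to these genes is not known. Among the nutrient sensing genes, 0 of 5 Ragulator genes, which tether mTORC1 to the lysosome, were past 1.5-fold in TPM, with Lamtor1 highest at a median of 30.9 TPM. Of the 4 Rag GTPases, which recruit mTORC1 there, 3 were past 1.5-fold in TPM and 0 in rescaled TPM, with Rraga highest at 32.1 TPM and Rragd the most variable at 1.86-fold in TPM. The GATOR1 complex, which switches the Rag GTPases off, had 1 of 3 past 1.5-fold in TPM (Nprl3, 1.53), and GATOR2, which opposes it, had 1 of 5 (Seh1l, 1.67). KICSTOR, which anchors GATOR1, had 0 of 3, the folliculin complex 2 of 3, and the amino acid sensors 2 of 6, with Sesn3, a sestrin, highest at 27.9 TPM. In rescaled TPM the counts were 0 for Ragulator, GATOR1, GATOR2 and the amino acid sensors and 1 each for KICSTOR (Itfg2, 1.51) and the folliculin complex.

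In the insulin and PI3K-Akt list 1 of 11 genes was past 1.5-fold in TPM, the PI3-kinase subunit gene Pik3cb at 1.71, and it was under it in rescaled TPM (1.43), where Irs2, named after its values were seen, was past it (1.51). In the energy sensing and stress list it was 2 of 9 in TPM and 1 in rescaled TPM, with Stk11 (LKB1), the kinase upstream of AMPK, highest at 25.0 TPM. Of 4 genes for mTORC2, the second complex of the Mtor kinase, 2 were past 1.5-fold in both units, with Prr5 the most variable at 2.02-fold in TPM. Of 10 genes listed as substrates of mTORC1 or of kinases below it, 4 were past 1.5-fold in TPM and 3 in rescaled TPM. Eif4b, which aids the helicase of translation initiation, was the highest of them at 38.0 TPM, and Grb10, which restrains insulin receptor signalling, the most variable at 2.05-fold. Of the 3 assembly chaperones of the kinase, 1 was past it (Telo2, 1.78), and so was Rhebl1, a paralogue of Rheb (1.91), but not Tbc1d7, a subunit that joins Tsc1 and Tsc2 (1.46). Beside all these counts, 47.9% of detected genes were past 1.5-fold in TPM and 33.9% in rescaled TPM.

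For each member, the gene whose TPM ratio to it varied least over the 6 libraries was found among 77 others, the 68 pathway genes and the remaining members. Rheb and Mios, a GATOR2 subunit, kept a ratio of 5.32 to 5.59 over the 6 libraries, and Tsc1 and Eef2k, the kinase of elongation factor eEF2, a ratio of 1.11 to 1.17. Tsc2 and Rictor, the mTORC2 scaffold, kept 2.88 to 3.09, and Mtor and the transcription factor gene Tfe3 1.74 to 1.90. The closest gene to Deptor, Prr5l, was less alike, at 1.75 to 2.49, and so was Depdc5 to Rps6kb2, at 0.16 to 0.22. Each pair was picked as the closest among 77 genes over only 6 libraries, which by itself yields close pairs. Whether the genes of a pair are regulated together was not tested.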

How the data were processed

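Per the paper's methods and the submitters' processing notes, the authors used cutadapt for trimming, STAR for alignment to mm10 and RSEM for quantification, with no versions stated in the sources used here. The labels name rRNA-depleted RNA extracted with TRIzol, and the methods name RNEasy columns. The files do not state the tissue, which was taken from the labels. The authors deposited expected counts per transcript (not normalized) and TPM per transcript. Transcript identifiers, with the version dropped, were looked up in GENCODE M21 (99.36% found) and values summed per gene, with counts rounded after the sum. Totals ran from 34689262 to 44463362 expected counts per library, and no pair of libraries agreed within sampling noise. Scaling used TMM in edgeR 4.0.16 and size factors in DESeq2 1.42.0 (R 4.3.3). A gene was called detected when each of the 6 libraries had a count of 10 or more. Past 1.5-fold means the highest over the lowest library, with no pseudocount, and Dixon's ratio was held against its 95% critical value for 6 values. Both calls were tried on simulated counts with counting noise alone, which is less than the spread between these libraries. The planted change was larger than 1.5-fold, and genes with as few reads as Rps6kb2 were left out. That trial therefore does not show how often the calls err here. Of each pathway list, the named genes are the one with the highest median TPM and the one with the largest ratio of highest to lowest library, and not all of them are printed. A marker and a pathway gene are not reported here. For likeness, the gene named beside a member is the one with the smallest range of the log2 TPM ratio. Members and lists were chosen with earlier results of these data known. A further 18 value columns were not used, and 0 of the 12 used were matched to a labelled sample.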

Additional observations from a re-analysis of the deposited data

Results flagged for a closer look

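Of 72 values examined (the members, their ratios and sums, the list sums and the named pathway genes), 4 had a highest or lowest library far from the other 5 by Dixon's ratio, and chance alone flags about 1 in 20. The 10 members summed as a percentage of expected counts had mouse 687 lowest, with a Dixon ratio of 0.845. The same sum had ratios of 0.24 in TPM and 0.47 in rescaled TPM, under the limit. In rescaled TPM the summed energy sensing and stress list had a Dixon ratio of 0.685 over a range of 370.8 to 391.5, and the summed assembly chaperones one of 0.631 over 40.3 to 44.9. In TPM the GATOR2 gene Sec13 had a Dixon ratio of 0.694, with mouse 703 highest at 17.6.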

How the results depend on the processing

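No paired analysis was possible because no library is tied to a labelled replicate. Of 314 values under the alternatives, 256 kept their size within the spread of the libraries or within 1.5 times the main count. These were 200 of 210 values with 1 library left out, but only 56 of 104 under another unit or setting. Some values in both sets could not change. With 1 library left out, a ratio of highest to lowest library changes only if that library was the highest or the lowest. Among the 104, ratios between members are the same in TPM and rescaled TPM. The 200 of 210 is therefore not a measure of how stable the results are. The count of members past 1.5-fold was 3 in TPM, 2 in rescaled TPM and 1 (Deptor) with either TMM or DESeq2 size factors, where 28.2% of detected genes were past it. The median log2 range of the members was 0.23 with either of those. The highest over the lowest library of the summed members was 1.26 in TPM, 1.17 in rescaled TPM and 1.15 as a share of expected counts. The count of pathway genes past 1.5-fold was 20 in TPM, 11 in rescaled TPM, 9 with TMM or DESeq2 size factors and 12 on the log2(value + 1) scale. Leaving out 1 library gave 9 to 20 pathway genes, 2 or 3 members and 2 or 3 of the 7 ratios past 1.5-fold. The share of all detected genes was not computed for these cases. Members with a TOP-like start numbered 0 at the annotated RefSeq start and 2 with the 5-base window. The GENCODE start was an alternative added after seeing the data. Among the gene totals, counts were low only for Rps6kb2, but some transcript shares of other members also rested on few reads. For example, Rps6kb1-204 held 24.9% to 42.4% of Rps6kb1 TPM on 31.7 to 69.9 expected counts. With no genotype for any library, nothing here bears on Larp1 cKO against Larp1 WT.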
